A study of Mus musculus with 12 samples.

Results

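Tph1, Tnfrsf11b, Slc13a3, Cd7 and Rundc3a stood among the largest differences between mouse CD8+ T cells activated with and without sodium lactate. The 5 genes were chosen from 13780 listed genes for the size of this difference, 3 for higher and 2 for lower RNA levels with lactate. Their lactate and media values are therefore described here without a test. Of the listed genes, 13767 had at least 1 CPM, counts scaled to library size, in 3 or more of 12 libraries and were tested, the 5 genes included. Tph1 and Tnfrsf11b reached 1 CPM in the 4 lactate libraries and in no other. Slc13a3 reached it in the 4 lactate libraries and in 1 naïve library. These genes passed the filter only through libraries in which they were high, so among tested genes they had to differ.

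RNA-seq was measured in CD8+ T cells from spleens of wild-type C57BL/6J mice aged 8 to 12 weeks, purified by positive magnetic selection, in 3 groups of 4 libraries. Naïve cells were lysed right after purification, without culture or activation. Media cells were activated for 72 h with beads carrying anti-CD3 and anti-CD28 and with recombinant human IL-2 in plain medium, and lactate cells were activated in the same way in medium with 40 mM sodium lactate. The record of the series gives 4 mouse donors of naïve and 5 of activated cells. Donor tags in the labels recur at low and at high library numbers. Read separately within each of these ranges, which is an inference, they give 3 donors with a media and a lactate library and 2 with a single library. The control of the transcriptome held no added sodium chloride, so sodium, osmolarity and lactate cannot be told apart. In these bulk samples, fewer cells that express a gene and less RNA per cell cannot be told apart either.

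The 5 genes have different known roles. Tph1 encodes tryptophan hydroxylase 1, the rate-limiting enzyme of serotonin synthesis outside the nervous system, and Tnfrsf11b encodes osteoprotegerin, a secreted decoy receptor that binds RANKL and TRAIL. Slc13a3 encodes NaDC3, a plasma membrane transporter that takes up succinate, α-ketoglutarate and other dicarboxylates together with sodium. Cd7 is an immunoglobulin superfamily glycoprotein on the surface of T and NK cells, whose known ligands include galectin-1, and Rundc3a encodes a RUN domain protein known as an effector of the small GTPase RAP2.

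Library totals ran from 16439750 to 18601223 counts in naïve cells, from 15842423 to 20922872 in media and from 14726904 to 21478137 with lactate. Cd8a was present at 388 to 1210 CPM in the 12 libraries. The naïve libraries also held markers of other cells. The summed level of 7 of 7 myeloid markers was 527 to 1600 CPM in naïve cells, 11.9 to 18.7 CPM in media and 5.33 to 10.9 CPM with lactate. For 6 of 6 B cell markers it was 2140 to 4910, 428 to 695 and 248 to 330 CPM. The sum of 3 of 3 NK cell markers was 5.06 to 13.6 CPM in naïve cells and was higher with lactate (2.04 to 5.48 CPM) than in media (0.709 to 1.34 CPM). For 3 of 3 CD4 T cell markers it was 30.3 to 52.0, 3.77 to 6.33 and, with lactate, 7.23 to 9.41 CPM. In activated cells most of the NK sum was Klre1, at 0.709 to 1.32 CPM in media and 1.99 to 4.77 CPM with lactate. Ncr1 was there at 0.0512 CPM or lower and Klrb1c at 0.666 CPM or lower. Most of the CD4 sum was Cd40lg, at 3.33 to 5.89 CPM in media and 6.76 to 7.85 CPM with lactate. Cd4 itself was at 0.99 CPM or lower in activated cells. The part of other cell types in the levels of the 5 genes was not tested. Naïve replicate 4 had the lowest Cd8a level of all libraries.

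**Figure D1:**
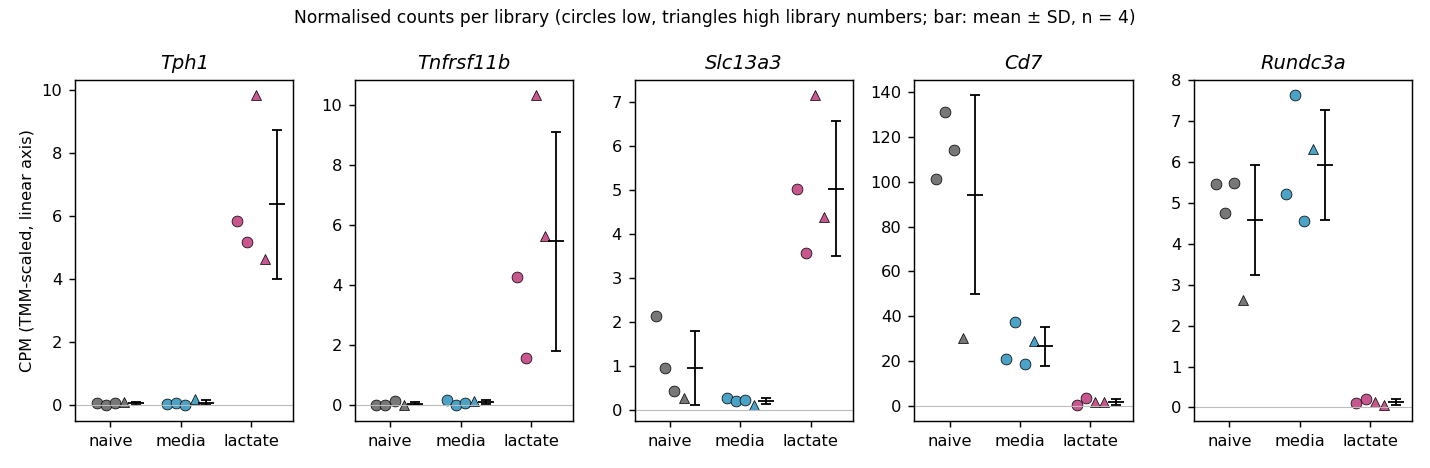
Level of each of the 5 genes in each library, 1 panel per gene with its own linear CPM axis, circles for the low and triangles for the high library numbers, and bars for the mean ± SD of each group of 4. Tph1 and Tnfrsf11b sit near 0 in naïve and media libraries and between 1.57 and 10.3 CPM with lactate, and Rundc3a sits at 0.210 CPM or lower with lactate.

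Tph1 (ENSMUSG00000040046; chromosome 7, 46644641 to 46672537 in GRCm38, minus strand) was close to absent without lactate. Its raw counts were 1, 0, 1 and 2 in naïve replicates 1 to 4, and 1, 1, 0 and 3 in media replicates 1 to 4. With lactate they were 114, 99, 139 and 96. No lactate library came near the range of the other 8 libraries (groups of lactate and media libraries did not overlap for 44.7% of all tested genes). The 4 lactate libraries ran from 4.63 to 9.83 CPM. The mean level was 0.0722 ± 0.0809 CPM in media and 6.37 ± 2.36 CPM with lactate (SD, n = 4 each). Scaled by depth, the summed lactate counts were 90.0 times those in media, with an exact 95% interval of 38.3 to 279 that covers counting error only. The fitted log2 fold change was 6.40 (standard error 0.56), the 4th highest of all tested genes. Divided by gene length, the lactate level was 3.24 TPM, a level scaled by gene length and library size, and 22.0% of tested genes had a lower mean there.

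RefSeq gives Tph1 a pair of start sites, and the gene counts do not tell which was used. The bases before each start are shown because this gene went from near 0 to expressed. The windows are chr7:46672538-46672787 and chr7:46667378-46667627 in GRCm38.p6, both on the minus strand and ending next to the start. Capitals mark matches, on either strand, to the TATA box TATAAA, the CCAAT box, the GC box GGGCGG, the AP-1 element TGANTCA, the cAMP response element TGACGTCA and its core TGACG, the E-box CACGTG, and ACGTG, the core of the hypoxia response element.
Tph1, upstream start: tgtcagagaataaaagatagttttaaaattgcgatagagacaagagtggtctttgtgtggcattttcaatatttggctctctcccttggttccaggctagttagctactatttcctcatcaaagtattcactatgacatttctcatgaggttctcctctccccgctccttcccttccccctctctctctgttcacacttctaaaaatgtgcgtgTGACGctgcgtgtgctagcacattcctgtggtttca
Tph1, downstream start: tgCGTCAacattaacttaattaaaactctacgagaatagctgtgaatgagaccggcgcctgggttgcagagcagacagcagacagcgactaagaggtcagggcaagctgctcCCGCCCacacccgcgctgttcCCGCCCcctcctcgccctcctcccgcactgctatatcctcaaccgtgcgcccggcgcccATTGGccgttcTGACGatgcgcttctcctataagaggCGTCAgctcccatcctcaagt
The upstream window had 43.6% GC, 5 CpG and 1 match, a TGACG beginning 36 bases before the start. The downstream window had 58.8% GC and 19 CpG, against a median of 52.4% and 6 over 32851 mouse promoter windows of 250 bases. It held 3 matches to TGACG, beginning 248, 47 and 21 bases before the start, 1 CCAAT box at 58 bases and GGGCGG at 138 and 117 bases. TGACG was found in 17.8% of all windows, CCAAT in 33.8% and GGGCGG in 32.7%. GGAAA, the core of NFAT sites, was also searched and is not capitalised: it lay in the upstream window and not in the downstream one, and in 55.6% of all windows. These matches describe letters only.

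Of the other genes of serotonin and tryptophan metabolism, 8 of 21 tested passed the test, in both directions. In lactate against media, 3451 of all tested genes (25.1%) passed the threshold of 0.01 on the adjusted p of edgeR's quasi-likelihood model and count as called. A list written from general knowledge held 37 serotonin and tryptophan genes besides Tph1, of which 21 were tested. Of these, 5 were higher, 3 were lower and 13 did not pass. Their median log2 fold change was 0.06, against -0.002 over all tested genes. Ddc, which makes serotonin from the product of Tph1, averaged 2.74 ± 0.471 CPM in media libraries against 4.36 ± 0.512 CPM in lactate libraries (SD, n = 4 each), a difference that did not pass (0.67 on the log2 scale, edgeR adjusted p = 0.151). Maoa, the mitochondrial enzyme that oxidises serotonin, rose from 6.20 ± 1.93 to 14.1 ± 0.966 CPM, by 1.19 on the log2 scale (n = 4 each, edgeR adjusted p = 0.0044). The Maoa call was lost when media replicate 1 or 2, or lactate replicate 1, 3 or 4, was left out, with an edgeR adjusted p of up to 0.0163. Tph2 and Slc6a4 were not analysed here.

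Among the uptake and kynurenine genes, Slc7a5, which carries tryptophan and other large amino acids into the cell, rose from 309 ± 114 to 732 ± 98.8 CPM (log2 fold change 1.24). Kyat3, a kynurenine aminotransferase, rose by 1.19 on the log2 scale, and Haao, which acts further down the kynurenine pathway, dropped by 1.19. The remaining calls, named after their values were seen, were the tryptophanyl-tRNA synthetase Wars (0.91), Qprt and 2 enzymes of the hydroxylase cofactor tetrahydrobiopterin. These enzymes were Spr (0.68) and Pts (-1.01). Qprt differed by -0.81 on the log2 scale (edgeR adjusted p = 0.00385). With the donor as a block, 6 genes of the list were higher and only 1 lower, Haao, so Qprt lost its call. Pts lost its call with the donor as a block (adjusted p = 0.0186, edgeR) and when any 1 of the same 5 libraries was left out (up to 0.0224). Kit, the only one of 6 mast cell and basophil markers listed, had 7.81 to 19.3 CPM in naïve cells, 62.0 to 99.8 CPM in media and 9.92 to 32.2 CPM with lactate. The part of such cells in the Tph1 counts was not tested. Cpa3, Mcpt8, Ms4a2, Cma1 and Tpsb2 were not analysed here.

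Tnfrsf11b (ENSMUSG00000063727; chromosome 15, 54250619 to 54278484, minus strand) showed the same pattern as Tph1 with a wider spread. Its raw counts were 0, 0, 2 and 0 in naïve replicates 1 to 4, and 3, 0, 1 and 2 in media replicates 1 to 4. With lactate they were 83, 30, 146 and 117. Replicate 2 was the lowest lactate library and still lay far above the highest of the other 8. The mean level went from 0.0800 ± 0.0645 CPM in media to 5.45 ± 3.67 CPM with lactate (SD, n = 4 each). The ratio of depth-scaled sums was 63.0 (exact 95% interval for counting error 28.7 to 173). The fitted log2 fold change of 5.95 (standard error 0.76) ranked 6th highest and was 5.05 with the donor as a block. The lactate level was 6.00 TPM, with 29.8% of tested genes lower.

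Of the ligands of osteoprotegerin and their receptors, Tnfsf11 passed the test. Tnfsf11, which encodes RANKL, was higher with lactate in 4 of 4 libraries: it rose from 9.61 ± 4.11 to 36.5 ± 6.06 CPM, by 1.92 with a standard error of 0.38 on the log2 scale (n = 4 each, edgeR adjusted p = 0.00191), and no alternative with 1 library left out lost this call. Its signalling receptor RANK, encoded by Tnfrsf11a, had counts of 2, 0, 0 and 3 in media and 2, 0, 0 and 1 with lactate, after 62 to 176 in naïve cells. Tnfsf10, which encodes TRAIL, averaged 28.1 ± 3.82 CPM in media libraries and 28.6 ± 5.45 CPM in lactate libraries (0.02 on the log2 scale, edgeR adjusted p = 0.984), and the sign of this difference turned with DESeq2's size factors. The TRAIL receptor Tnfrsf10b differed by 0.20 on the log2 scale (edgeR adjusted p = 0.417).

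Besides Tnfrsf11b, 24 of 29 listed genes of the TNF receptor superfamily and the osteoprotegerin ligands were tested. Of these, 4 were higher and 2 lower (25%), a share near that of all tested genes, and their median log2 fold change was 0.21. Tnfrsf8, which encodes CD30, had the largest difference, from 4.17 ± 2.61 to 45.6 ± 13 CPM, or 3.44 on the log2 scale (n = 4 each, edgeR adjusted p = 0.000175). The costimulatory receptor Cd27 dropped from 134 ± 24.7 to 59.5 ± 6.14 CPM, and Tnfrsf14, which encodes HVEM, from 21.3 ± 5.42 to 8.60 ± 1.81 CPM. Stromal cells are a known source of osteoprotegerin, and of 5 stromal markers 2 were listed. Their summed level was 157 to 207 CPM in naïve cells, 44.9 to 76.7 CPM in media and 27.5 to 34.1 CPM with lactate. Nearly all of it came from Pecam1, a marker of endothelial cells that leukocytes express too, while Pdgfrb had 3.27 to 5.08 CPM in media and 1.38 to 2.83 CPM with lactate. The part of stromal cells in the Tnfrsf11b counts was not tested.

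Slc13a3 (ENSMUSG00000018459; chromosome 2, 165405028 to 165473230, minus strand) was low but measurable in naïve cells. Its raw counts were 38, 16, 8 and 5 in naïve replicates 1 to 4. In media replicates 1 to 4 they were 6, 4, 4 and 2, and with lactate 98, 68, 101 and 91. All 4 lactate libraries lay above all others, and the 4 media libraries lay below 3 of the naïve libraries by count. In CPM the media libraries lay below all naïve ones, the nearest being 0.277 CPM in media replicate 1 and 0.280 CPM in naïve replicate 4. The group means were 0.954 ± 0.844 CPM in naïve cells, 0.211 ± 0.0631 CPM in media and 5.03 ± 1.53 CPM with lactate (SD, n = 4 each). Between lactate and media the fitted log2 fold change was 4.50 (standard error 0.58), the 15th highest, and the ratio of sums was 22.5 (exact 95% interval for counting error 13.7 to 39.8). The lactate level was 3.03 TPM, close to that of Tph1.

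In the naïve libraries, Slc13a3 counts fell from replicate 1 to 4, as did the myeloid markers Csf1r and Adgre1. Csf1r, a receptor of the monocyte and macrophage lineage, had 918, 585, 282 and 205 CPM in replicates 1 to 4. The other listed myeloid markers, Lyz2, Itgam, Cd68, Cd14 and S100a8, did not follow this order. Lyz2 had 156, 263, 78.1 and 123 CPM. The part of myeloid cells in the naïve Slc13a3 counts was not tested. In the 8 activated libraries Csf1r was at 0.109 CPM or lower. The bases before the RefSeq start of Slc13a3 lie at chr2:165473231-165473447 in GRCm38.p6 on the minus strand. They are shown, with the same capitals, as those of the other increased gene with a promoter in the table, and leave out 33 bases next to the start that GENCODE places in an exon.
Slc13a3, before the start: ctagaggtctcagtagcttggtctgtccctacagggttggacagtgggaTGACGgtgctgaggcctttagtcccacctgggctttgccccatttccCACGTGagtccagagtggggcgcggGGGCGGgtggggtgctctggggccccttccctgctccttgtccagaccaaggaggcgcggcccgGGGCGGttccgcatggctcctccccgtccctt
The whole window of 250 bases had 67.6% GC, higher than 87.1% of windows, and 14 CpG. It held TGACG beginning 201 bases before the start, GGGCGG at 129 and 65 bases, and CACGTG at 154 bases. CACGTG, the E-box known for MYC and related factors, contains the shorter ACGTG on both strands and was found in 6.0% of all windows. GGAAA, not capitalised, lay at 159 bases. TGACG, found in 17.8% of all windows, thus occurred in all 3 windows of the 2 genes. It was picked out after the matches of all searched motifs were seen. Sequences of Tnfrsf11b, Cd7 and Rundc3a are not shown here.

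Besides Slc13a3, 18 of 33 listed carriers of carboxylic acids were tested, of which 2 were higher and 16 did not pass (11.1% called, against 25.1% of all tested genes), with a median log2 fold change of 0.18. With the donor as a block 5 were higher, and 4 when the 2 groups were fitted alone. The mitochondrial dicarboxylate carrier Slc25a10 rose from 13.9 ± 3.09 to 30.5 ± 3.46 CPM, by 1.13 on the log2 scale (n = 4 each, edgeR adjusted p = 0.000344). Mpc2, a subunit of the mitochondrial pyruvate carrier, rose by 0.47 on the log2 scale (edgeR adjusted p = 0.00262) and missed the threshold without lactate replicate 3 or 4 (up to 0.0124). Slc13a2 and Slc13a5, the closest relatives of Slc13a3, were not analysed here.

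Cd7 (ENSMUSG00000025163; chromosome 11, 121036747 to 121039418, minus strand) had the highest level per length of the 5 genes in naïve and media cells, and lay below Tnfrsf11b with lactate. Its raw counts were 1800, 2185, 2116 and 538 in naïve replicates 1 to 4 and 448, 686, 338 and 463 in media replicates 1 to 4. With lactate they were 4, 64, 22 and 36. The lactate libraries lay below all others and differed among themselves more than those of the other groups, with a coefficient of variation of 75.3%, against 32.2% in media and 47.2% in naïve cells. The mean levels were 94.2 ± 44.4 CPM in naïve cells, 26.5 ± 8.53 CPM in media and 1.71 ± 1.29 CPM with lactate (SD, n = 4 each). Per length these were 280, 80.9 and 4.75 TPM, with 96.5%, 83.1% and 26.7% of tested genes lower. The fitted log2 fold change between lactate and media was -3.94 (standard error 0.59), the 19th lowest, and the depth-scaled sum was 15.3-fold lower (exact 95% interval for counting error 12.8 to 18.4). Of the exon bases of Cd7, 10.8% overlap Gm11775 on the opposite strand, and no source used here says whether reads were counted by strand, so reads from this stretch are uncertain.

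Besides Cd7, 32 of 36 listed T cell surface glycoproteins and Cd7 ligands were tested: 3 were higher, 12 lower and 17 did not pass, and their median log2 fold change was -0.40. The 46.9% called stand beside 25.1% of all tested genes, of which 13.9% were higher and 11.1% lower. Cd96, a receptor of the nectin family, dropped from 85.1 ± 15.9 to 29.7 ± 2.04 CPM, a difference of -1.52 on the log2 scale (n = 4 each, edgeR adjusted p = 0.00113). Its costimulatory relative Cd226, the SLAM family member Slamf6 and the adaptor Lax1 dropped by 1.20, 1.26 and 1.20 on the log2 scale. The higher genes, named after their values were seen, were Crtam (1.06), Slamf1 (0.75) and Cd2 (0.51). Cd2 kept its call in only 2 of 12 fits with 1 library left out, and Slamf1 in 8 of 12. Lgals1, which encodes the Cd7 ligand galectin-1, averaged 403 ± 32.0 CPM in media libraries and 508 ± 26.1 CPM in lactate libraries (0.34 on the log2 scale, edgeR adjusted p = 0.236). Sectm1a and Sectm1b were not analysed here.

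Rundc3a (ENSMUSG00000006575; chromosome 11, 102393403 to 102402555, plus strand) was present in naïve and media libraries and near 0 with lactate. Its raw counts were 97, 79, 102 and 47 in naïve replicates 1 to 4, and 113, 140, 82 and 101 in media replicates 1 to 4. With lactate they were 2, 4, 2 and 1. No lactate library exceeded 4 counts, whereas the naïve and media libraries overlapped. The means were 4.59 ± 1.35, 5.94 ± 1.35 and 0.13 ± 0.0679 CPM in naïve, media and lactate cells (SD, n = 4 each). The fitted log2 fold change between lactate and media was -5.52 (standard error 0.40), the 5th lowest, and the depth-scaled sum was 48.2-fold lower (exact 95% interval for counting error 25.2 to 106). Per length the level went from 6.99 TPM in media to 0.135 TPM with lactate.

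Of the genes for RAP2 GTPases, Rap2a passed the test. It dropped from 33.7 ± 2.27 to 18.0 ± 1.5 CPM, a difference of -0.91 on the log2 scale (n = 4 each, edgeR adjusted p = 0.000168). Rap2b differed by -0.26 (edgeR adjusted p = 0.05) and Rap2c by 0.03 (0.843), which became 0 with DESeq2's size factors. The paralog Rundc3b, at 28.5 ± 4.6 CPM in media libraries and 19.9 ± 1.11 CPM in lactate libraries, did not pass (-0.52 on the log2 scale, edgeR adjusted p = 0.184). Besides Rundc3a, 30 of 31 listed RUN domain and RAP2 genes were tested: 1 was higher, 6 were lower and 23 did not pass (23.3% called, near the 25.1% of all tested genes, median log2 fold change -0.26). Rubcnl and Fyco1, both known from autophagy, dropped by 2.09 and 1.59 on the log2 scale, and Rufy2 by 0.94. Rubcnl was low in both groups, with 15 to 30 counts per library in media and 4 to 5 with lactate. Sgsm3, which modulates small G protein signalling, rose from 8.72 ± 2.13 to 21.7 ± 2.43 CPM.

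**Figure D2:**
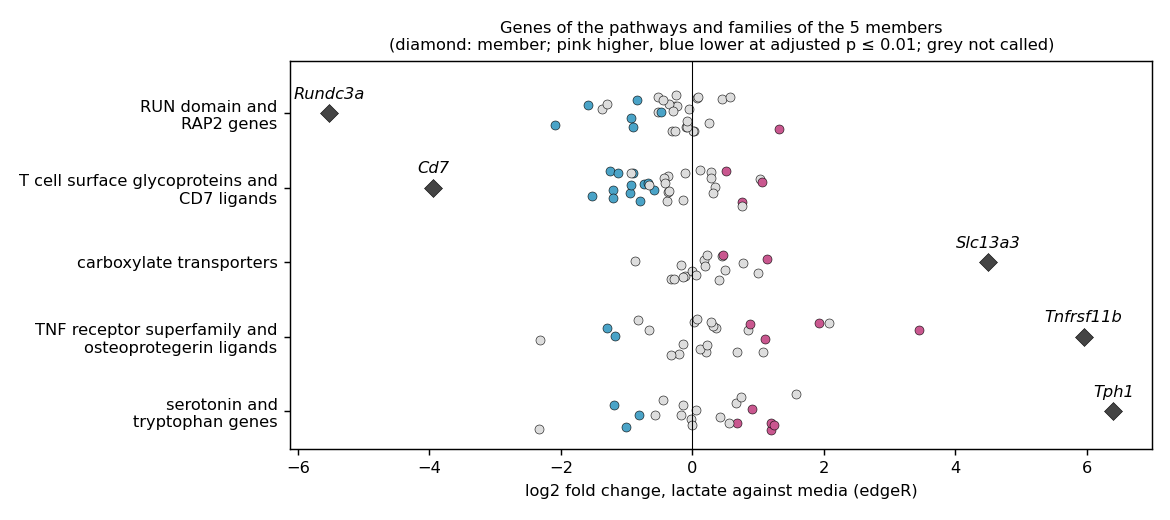
Log2 fold change, lactate against media, of each tested gene in the 5 lists of related genes, 1 point per gene spread vertically for legibility, pink for called higher, blue for called lower and grey for not called, with the 5 genes as dark diamonds. The T cell surface list has 12 blue points and 3 pink ones. Each diamond lies outside the range of its own list, the 5 genes having been chosen for the size of this difference.

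The comparisons with naïve cells share their media or lactate libraries with the one that chose the genes, so for the 5 genes they are given as a description with no test, beside the share of all tested genes called (57.5% in media against naïve cells). The fitted log2 fold change of media against naïve cells was -2.11 for Slc13a3 (standard error 0.60) and -1.83 for Cd7 (standard error 0.49). It was 0.25 for Tph1 (standard error 0.90), 1.33 for Tnfrsf11b (standard error 1.35) and 0.37 for Rundc3a (standard error 0.28). At 0 to 3 counts per library, a difference between naïve and media cells in Tph1 or Tnfrsf11b was not detectable at this depth.

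Some of these values depended on 1 library. Without naïve replicate 1 the value of Slc13a3 was -1.40. Without naïve replicate 3, which held the 2 naïve counts of Tnfrsf11b, the fitted value of that gene was 3.66, set by the prior count. Naïve and media libraries did not overlap for Slc13a3, as for 61.2% of all tested genes. They overlapped for Cd7, since naïve replicate 4 had 30.1 CPM where the other naïve libraries had 101 to 131 CPM. That library also had the lowest Cd8a level, 388 CPM against 849 to 1210 CPM in the other naïve libraries. Its library number is 26, where the other naïve libraries have 7, 8 and 9. Its cell content and its range of library numbers cannot be told apart, and their part in this value was not tested.

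Lactate against naïve cells, where 65.0% of tested genes were called, is a description too, since Tph1, Tnfrsf11b and Slc13a3 had to differ. The fitted log2 fold change was 6.65 for Tph1 (standard error 0.58), 7.28 for Tnfrsf11b (standard error 0.88) and 2.39 for Slc13a3 (standard error 0.49). It was -5.78 for Cd7 (standard error 0.62) and -5.14 for Rundc3a (standard error 0.40). Without naïve replicate 3 the value of Tnfrsf11b was 9.62, again set by the prior count, and without naïve replicate 1 that of Slc13a3 was 3.09. Mean levels of Cd7 thus went down from naïve to media and from media to lactate cells, and those of Slc13a3 were lowest in media. No lactate library overlapped a naïve one for any of the 5 genes, as for 67.8% of all tested genes.

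**Figure D3:**
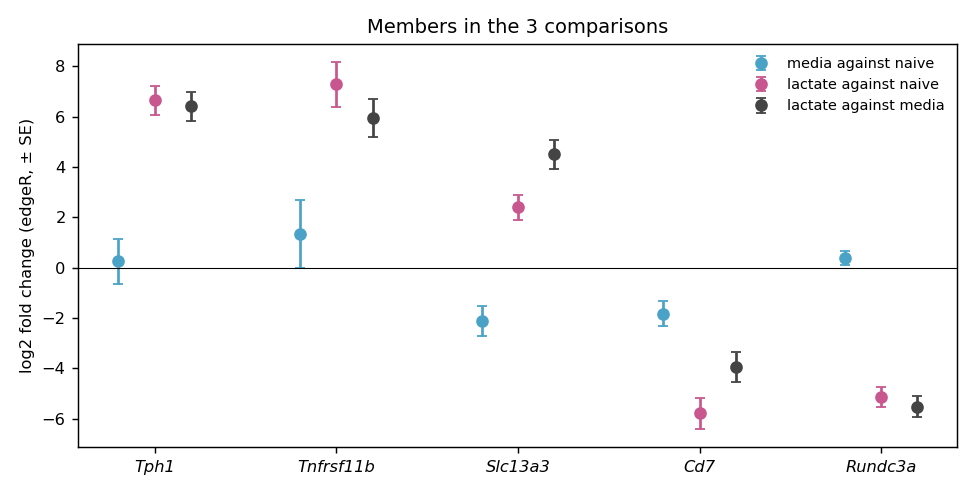
Log2 fold change with its standard error for each of the 5 genes in media against naïve, lactate against naïve and lactate against media. In media against naïve, Slc13a3 (-2.11) and Cd7 (-1.83) lie below 0, and in lactate against naïve the 5 genes run from -5.78 to 7.28.

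The lactate difference was also computed within ranges of library numbers and within inferred donors, as a description of the values that chose the genes. Library numbers 1 to 9 hold 2 lactate and 3 media libraries, and numbers 16 to 26 hold 2 lactate libraries and 1 media library. The labels do not say what the numbers stand for. The difference in mean log2 CPM, with a prior count of 2 that draws low values together, for Tph1 was 5.31 within the low and 4.52 within the high numbers. It was 4.03 and 5.04 for Tnfrsf11b, 3.64 and 4.6 for Slc13a3, -4.56 and -4.05 for Cd7, and -4.47 and -5.01 for Rundc3a. Over the 3 inferred donors with both libraries it ran from 3.99 to 5.59 for Tph1, from 3.34 to 4.61 for Tnfrsf11b and from 3.46 to 4.25 for Slc13a3. For Rundc3a it ran from -5.35 to -3.87 and for Cd7 from -6.05 to -2.45. Lactate replicate 2 lay nearest to the media libraries for Tnfrsf11b, Slc13a3, Cd7 and Rundc3a, and replicate 3 had the highest counts of the 3 increased genes.

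**Figure D4:**
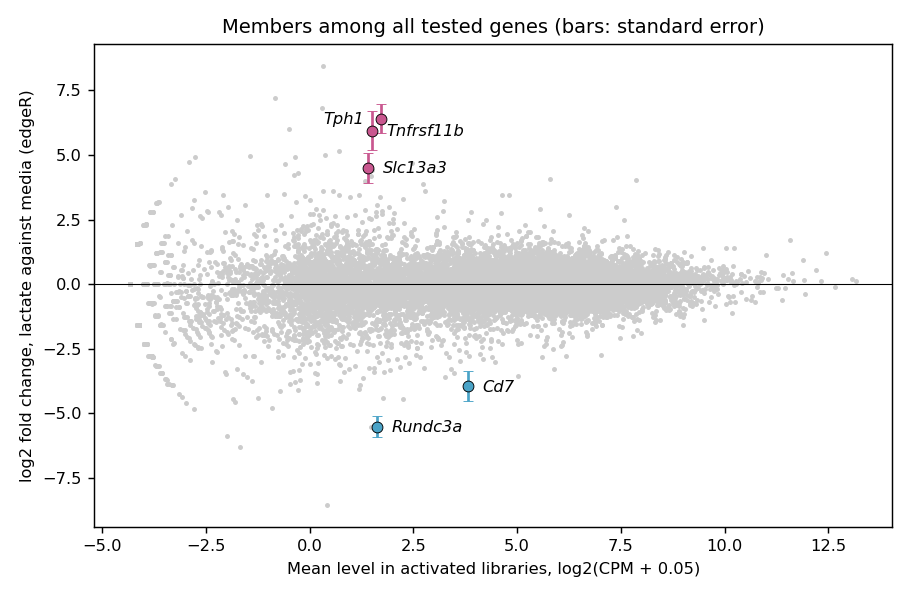
Log2 fold change, lactate against media, of all tested genes against their mean level in the activated libraries as log2(CPM + 0.05), with the 5 genes marked and their standard errors as bars. Tph1 (6.40) and Tnfrsf11b (5.95) lie at the upper edge at low abundance, and Rundc3a (-5.52) and Cd7 (-3.94) near the lower edge.

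A change between near 0 and at least 1 CPM was seen in 13 genes. A search with limits taken from the 5 genes themselves, after their values were seen, found 9 genes with at most 6 counts in every media library and at least 1 CPM in every lactate library. Besides Tph1, Tnfrsf11b and Slc13a3 these were Cdhr3, Cpne6, Gm5122, Mpp3, Il23a, which encodes a subunit of the cytokine IL-23, and S100a4, a calcium-binding protein. In the other direction, 4 genes had at most 4 counts in every lactate library and at least 1 CPM in every media library, namely Rundc3a, Gm26740, the PYHIN family member Ifi211 and the potassium channel Kcnc1. These were 0.0654% and 0.0291% of tested genes.

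The profiles over the 12 libraries were compared by the root mean square difference of centred log2 CPM, among genes with at least 5 CPM in a group mean. These profiles include the lactate and media values that chose the 5 genes. A like difference between these groups therefore brings genes near each other, and the likeness is a description with no test. Nearest to Tph1 were Tnfrsf11b (0.66), the retinoic acid binding protein Crabp2 (0.76) and Lta, which encodes lymphotoxin alpha (0.79). Nearest to Tnfrsf11b were Crabp2 (0.63), Lta (0.64) and Tph1 (0.66). Lta averaged 26.6 CPM in media libraries and 436 CPM in lactate libraries. For Slc13a3 the nearest were the protease Adamts14 (0.75), perforin, Prf1 (0.77), and the growth factor Hbegf (0.85). For Cd7 they were Rtp4 (0.88), the ubiquitin ligase Rnf144a (0.90) and Trat1, an adaptor of the T cell receptor complex (0.91). For Rundc3a they were Baiap3 (0.72), the PYHIN family member Ifi203 (0.85) and the PI3K inhibitor Pik3ip1 (0.86).

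Genes beside the 5 on the chromosome mostly did not pass the test. Of the 3 nearest tested genes on each side, 30 in all, 5 were higher, 1 was lower and 24 did not pass, a share of 20% called against 25.1% of all tested genes. Next to Tph1, Sergef at 4.8 kb differed by -0.02 on the log2 scale (edgeR adjusted p = 0.985), and Gm45629 at 10.3 kb had 0.66 (0.108). Further out, Kcnc1 at 205.9 kb fell from counts of 29, 110, 20 and 28 in media to 0 in all 4 lactate libraries. The exact 95% interval for counting error put its lactate to media ratio at 0.02 or lower. Nomo1, at 560.4 kb on the same side, was higher by 0.89 on the log2 scale.

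Ocstamp, known from the fusion of osteoclast precursors, lies 4.6 kb beyond the end of Slc13a3 and was also higher, at very low counts. It had 1, 0, 0 and 0 counts in media and 4, 5, 4 and 4 with lactate, after 14 to 30 in naïve cells, and the lactate to media ratio was 17.1 with an exact 95% interval for counting error of 2.68 to 714. Its adjusted p was 0.00238 in edgeR and 0.0476 with the donor as a block, which lost the call. On the other side of Slc13a3, Trp53rka at 16.9 kb differed by 0.08 on the log2 scale (edgeR adjusted p = 0.681), and Slc35c2, at 117.2 kb, was higher by 1.39.

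Around the other 3 genes, the nearest neighbours did not pass. Beside Tnfrsf11b these were Ext1 (0.18, adjusted p = 0.331, edgeR) and Enpp2, with 0 or 1 counts in each activated library. Beside Cd7 they were Csnk1d (-0.06, 0.737) and Ogfod3 (0.22, 0.346). Slc25a39, on the opposite strand, ends 430 bases from the end of Rundc3a. It averaged 81.4 ± 12.9 CPM in media libraries and 104 ± 3.89 CPM in lactate libraries (0.35 on the log2 scale, edgeR adjusted p = 0.207), while Rundc3a itself was near 0. Slc4a1, on its other side, had no counts in the 8 activated libraries. Med30 (0.60), the third gene from Tnfrsf11b, and Ubtf (0.75), the second from Rundc3a, were called higher, and Med30 lost its call without lactate replicate 3 (adjusted p = 0.0112, edgeR).

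**Figure D5:**
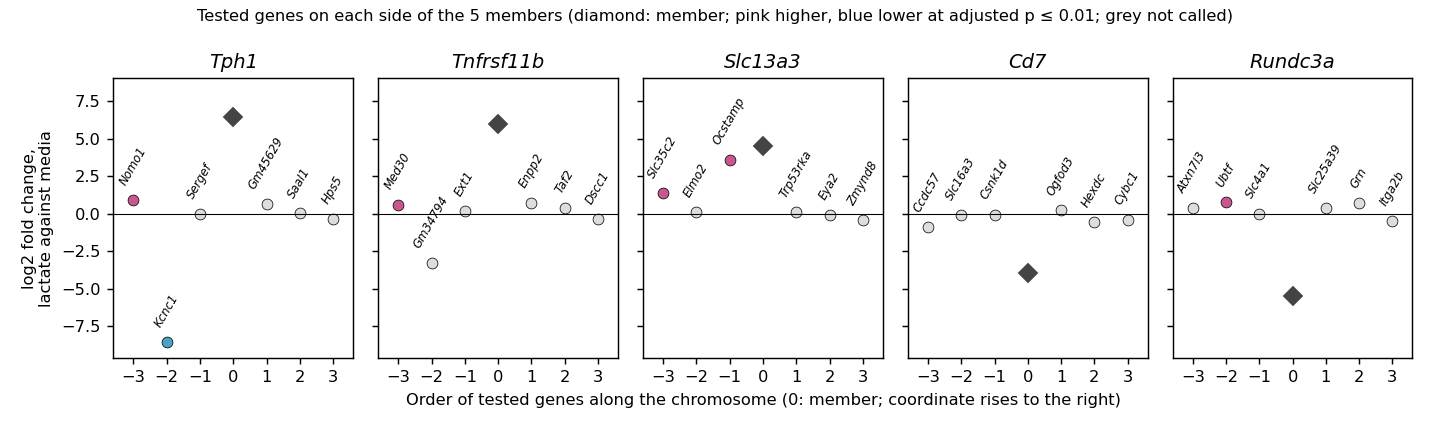
Log2 fold change, lactate against media, of the 5 genes and of the 3 nearest tested genes on each side, in order along the chromosome and not to scale in distance. Of the 30 neighbours 24 are grey, that is not called, and Kcnc1, with no counts in lactate, is drawn at its fitted value, which depends on the prior count.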

How the data were processed

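Per the submitters' processing notes and the methods, the authors demultiplexed reads with bcl2fastq 2.20.0.422, aligned them to GRCm38 with STAR 2.7.5b, and used featureCounts on Ensembl exons for reads mapped to 1 place, without PCR duplicates. The deposited table holds raw counts, not normalised, and gene lengths for 13780 genes. Whether reads were counted by strand is not stated. The table had 0 columns of samples left unused.

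In R 4.3.3, a filter of 1 CPM in 3 or more libraries dropped 13 genes. After TMM scaling, edgeR 4.0.16 fitted all 12 libraries in 3 groups by quasi-likelihood. Tests were two-sided, p-values were adjusted by Benjamini-Hochberg across the tested genes, and a gene was called at 0.01. Fitted fold changes used a prior count of 0.125. Alternatives used limma 3.58.1 (voom), DESeq2 1.42.0, other filters, scalings and blocks, and each library left out. Counting intervals are exact at 95%, cover counting error only and compare summed counts. CPM are TMM-scaled, and TPM used the lengths in the table. Coordinates are from GENCODE M21 on GRCm38, and promoter sequences from RefSeq.

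The 5 genes and the gene lists were chosen with earlier results of these data known. Genes named were the 5 genes, their direct partners, up to 4 called genes with the largest fold change per list, the nearest and the called neighbours, and the 3 most alike profiles. Others are marked as named after their values were seen. Replicate numbers are those of the sample titles, and groups come from the labels. Donors were inferred by reading the donor tags within low and high library numbers, which gives the 5 donors that the record states. Deviations from the group means in the media and lactate library of an inferred donor correlated across genes at 0.374, 0.211 and 0.553. Media and lactate replicate 2, of different inferred donors, correlated at 0.297, so these values do not test the donor reading. The donor block is given where it changed a call. Comparisons of the 5 genes with naïve cells are given without their p-values.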

Additional observations from a re-analysis of the deposited data

Results flagged for a closer look

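In 189 groups of 4 libraries, over 64 of the named genes, 17 libraries stood far from the other 3 of their group, by a gap relative to the range of the group. Chance flags about 1 in 20 groups. Of the 17, 8 were naïve replicate 4, the only naïve library in the high range of library numbers (26). That library had the highest naïve level of Maoa (1.68 CPM, others 0.754 to 0.841), Tnfsf11 (3.47, others 0.958 to 1.35), Rundc3b (61.6, others 21.2 to 24.6), Rap2c (113, others 84.1 to 88.0), Kcnc1 (18.4, others 11.2 to 12.2) and Csnk1d (293, others 181 to 194). It had the lowest level of Kyat3 (1.62 CPM, others 2.96 to 3.06) and Crtam (15.4, others 24.5 to 25.5).

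Among the 5 genes, Tnfrsf11b in naïve replicate 3 was flagged at 0.108 CPM, which is 2 counts where the other naïve libraries had 0. Enpp2 in media replicate 3 (0.0557 CPM) and Ocstamp in media replicate 1 (0.0462 CPM) were each 1 count against 0. Tnfsf10 was low in media replicate 3 (22.4 CPM, others 29.5 to 30.4) and in lactate replicate 2 (20.4, others 30.6 to 31.8), which carry the same donor tag. Kcnc1 was high in media replicate 2 (6.00 CPM, others 1.11 to 1.76), Prf1 in media replicate 1 (56.7, others 28.5 to 32.1) and Slc35c2 in lactate replicate 1 (73.8, others 61.8 to 62.8). Ifi203 was low in lactate replicate 3 (9.34 CPM, others 11.3 to 11.7).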

How the results depend on the processing

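The direction of all 5 genes between lactate and media was the same in each alternative that gave a value. Since these libraries chose the genes for a large difference, this is a description and no test of the direction. The size of the difference depended on the prior count: with a prior of 2 the log2 fold changes were 5.17 for Tph1, 4.86 for Tnfrsf11b, 3.98 for Slc13a3 and -4.70 for Rundc3a, and as differences of log2(CPM + 1) they were 2.74, 2.39, 2.28 and -2.61. With 1 library left out Tph1 ran from 6.03 to 7.26 (without media replicate 4) and Cd7 from -4.52 to -3.56. Between media and naïve cells Tph1 ran from -0.67 (without media replicate 4) to 0.75, and turned to -0.16 without naïve replicate 2. The 3451 genes called between lactate and media became 5461 at an adjusted p of at most 0.05 and lay between 2260, without media replicate 2, and 4830, without naïve replicate 4. The 6 called neighbours became 10 with DESeq2 and 13 at 0.05, and ran from 5 to 12 (without naïve replicate 4), and the 38 called genes of the lists ran from 27 to 49. A filter of at least 10 counts in every library left out all 5 genes and gave no value for them. With the replicate block by title number 3256 genes were called, and with the donor block 3769. Media and lactate libraries with the same title number, 1 to 4, correlated at 0.374, 0.297, 0.004 and 0.553. Numbers 1 and 4 are also inferred donor pairs. Number 2 joins different inferred donors, yet lies above the 0.211 of an inferred donor pair. The correlations thus do not tell these pairings apart. Title numbers were not read as pairs because they do not follow the donor tags. Apart from Pts, Qprt, Ocstamp and the carboxylate transporters, the donor block changed no call of a gene named between lactate and media. The counts of the lists moved with the donor block. The T cell surface list went from 15 to 20 called of 32, and the serotonin and tryptophan list from 8 to 7. The TNF receptor list went from 6 to 7, and the RUN domain and RAP2 list from 7 to 6. Replacing TMM by size factors moved the median log2 fold change by -0.03. At a few counts per library, the depth limits the size of each fold change against a group near 0.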
